A study of Mus musculus with 9 samples.

Results

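Toll-like receptors were followed in the hippocampus of lupus-prone mice through 10 genes, chosen by name: Tlr1, Tlr2, Tlr3, Tlr4, Tlr6, Tlr7, Tlr8, Tlr9, Tlr13 and the adaptor Myd88, out of 47643 genes counted. Bulk RNA of 9 hippocampus libraries was compared in groups of 3. The MRL/mpj libraries are labelled as wild type and untreated, the MRL/lpr libraries as untreated mice with the lpr mutation of Fas, and the MRL/lpr+MSC libraries as MRL/lpr mice that were given mesenchymal stem cells. All 9 carry the label of post natal week 6. The labels give the strain of every library as C57BL/6, whereas the series title and the study's methods give MRL/MpJ-Faslpr mice and MRL/MpJ controls. The study's text does not describe the group given cells.

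Toll-like receptors are membrane proteins of microglia, other macrophages and many further cells that bind microbial molecules, and some also bind nucleic acids or proteins released by the body's own cells. Tlr1, Tlr2, Tlr4 and Tlr6 act at the cell surface, whereas Tlr3, Tlr7, Tlr8, Tlr9 and Tlr13 act in endosomes and bind RNA or DNA. All of them except Tlr3 signal through Myd88, which leads to NF-kappaB and the interferon regulatory factors and from there to cytokine and interferon genes. Tlr7 and Tlr9 are known in lupus for the response of B cells and dendritic cells to complexes of autoantibody with RNA or DNA.

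Libraries held between 19475804 and 26912031 counts. Levels are given as CPM, a count scaled to the size of its library, and the 3 counts that a count of 0 still allows equal 0.105 to 0.163 CPM, from counting error alone. Within each group, every pair of libraries differed by more than sampling noise. The labels of the MRL/lpr and MRL/lpr+MSC groups are in doubt, because a normalised table published with the study holds, under the heading MRL/lpr, values proportional to those of libraries that the labels call MRL/lpr+MSC. Both groups are therefore set side by side against MRL/mpj, and a fit with the 6 libraries as 1 group is given beside them. A gene counts as differentially expressed when limma voom gives it a Benjamini-Hochberg adjusted p under 0.05, corrected across the genes tested, together with a difference of 1.5-fold or more. Nothing says that the libraries of a group come from separate litters or days, and the p-values measure only the spread between these libraries. Fas, the gene that lpr changes, had 1.82 ± 0.186 CPM in MRL/mpj, 1.79 ± 0.482 CPM in MRL/lpr and 1.31 ± 0.445 CPM in MRL/lpr+MSC mice (mean ± SD, n = 3 each). The log2 fold change of Fas between MRL/lpr and MRL/mpj was -0.03 (limma voom, adjusted p = 0.951). The lpr mutation is an insertion in an intron, and its effect on the reads of Fas was not examined. The level of Fas overlapped between the groups and did not tell MRL/lpr from MRL/mpj libraries, so the genotype labels remain unchecked. Markers of hippocampal neurons (6 genes, Zbtb20 the most abundant) were present in every group and summed to 1131 to 1269 CPM in MRL/mpj, 648 to 1122 CPM in MRL/lpr and 736 to 981 CPM in MRL/lpr+MSC mice. Markers of striatal neurons (6 genes, Ppp1r1b the most abundant) summed to 65.1 to 76.6, 92.9 to 133 and 68.7 to 138 CPM in the same order, and the part of differences in the dissected tissue was not tested.

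Tlr1 and Tlr6 lie next to each other on chromosome 5 of GRCm38, Tlr1 at chr5:64924679-64933563 and Tlr6 at chr5:64952031-64960097, both on the minus strand, with 18467 bases and 0 annotated genes between them. Their transcripts are nearly identical over 792 bases, with 7 differences (99.1% identity) and a longest identical run of 229 bases. Of the 50-base words of Tlr6, 454 of 3702 are also in Tlr1. A read from this stretch cannot always be assigned to 1 of the genes, and the values of Tlr1 and Tlr6 are uncertain to that extent. A window of 121 bases, in the coding exon of each gene, is shown from the GENCODE transcripts Tlr1-202 (chr5:64925706-64925826, minus strand) and Tlr6-201 (chr5:64953997-64954117, minus strand), with the base that differs in capitals.
Tlr1: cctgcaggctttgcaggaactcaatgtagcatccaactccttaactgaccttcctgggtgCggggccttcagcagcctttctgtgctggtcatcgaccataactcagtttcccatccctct
Tlr6: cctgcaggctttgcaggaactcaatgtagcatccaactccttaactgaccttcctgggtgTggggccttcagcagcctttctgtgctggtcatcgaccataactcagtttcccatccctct

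Tlr7 (X:167304929-167330558) and Tlr8 (X:167242696-167264329) are neighbours as well, on the minus strand of the X chromosome with 40599 bases and 0 annotated genes between them. Neither Tlr7 nor Tlr8 shares a 50-base word with another gene, and the same holds for Tlr2 (chr3:83836272-83841767, minus strand), Tlr9 (chr9:106222598-106226883, plus strand) and Tlr13 (X:106143204-106160493, plus strand). Tlr4 lies at chr4:66827584-66930284 on the plus strand and Tlr3 at chr8:45395665-45411080 on the minus strand. Of the words of Tlr3, 288 of 5436 occur in 1 other gene, and of those of Tlr4, 12 of 5551 occur in other genes. Myd88 (chr9:119335934-119341411, minus strand) overlaps 1736 bases of Acaa1a on the opposite strand, a gene with a mean of 22.8 CPM, and also Slc22a14, which had 6 counts in all libraries together. The kit named in the labels does not mark strand and the setting of the counting is not stated, so reads from the overlap of Myd88 and Acaa1a cannot be told apart.

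RefSeq promoter windows of GRCm38.p6, from 250 bases before to 50 bases after a start, were found for 8 of the 10 genes (10 windows, none for Tlr4 and Tlr7). They were searched on both strands for the interferon-stimulated response element core, written as GAAA, any 2 bases and a further GAAA, and for a kappaB-like motif, written as GGG, any 2 bases and TTTCC, since NF-kappaB and interferon regulatory factors are the end points of the pathway. The first is in windows of Tlr6 and Myd88 and in 3.44% of 32851 mouse promoter windows, and the second is in the window of Tlr3 and in 1.63% of the windows. The 3 windows that hold a match are shown 5′ to 3′ on the gene's strand with the matched letters in capitals: Tlr6 at chr5:64959117-64959416 with 2 overlapping matches on the other strand, whose first bases are 116 and 110 bases before the start, Myd88 at chr9:119339969-119340268 with a match 40 bases before the start, and Tlr3 at chr8:45410331-45410630 with a match 211 bases before the start.
Tlr6: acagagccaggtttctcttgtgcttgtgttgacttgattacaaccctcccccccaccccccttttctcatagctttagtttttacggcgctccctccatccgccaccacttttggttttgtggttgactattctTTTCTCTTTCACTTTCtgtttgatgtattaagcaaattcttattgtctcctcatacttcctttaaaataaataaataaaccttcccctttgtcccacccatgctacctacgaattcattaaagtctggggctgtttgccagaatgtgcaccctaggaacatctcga
Myd88: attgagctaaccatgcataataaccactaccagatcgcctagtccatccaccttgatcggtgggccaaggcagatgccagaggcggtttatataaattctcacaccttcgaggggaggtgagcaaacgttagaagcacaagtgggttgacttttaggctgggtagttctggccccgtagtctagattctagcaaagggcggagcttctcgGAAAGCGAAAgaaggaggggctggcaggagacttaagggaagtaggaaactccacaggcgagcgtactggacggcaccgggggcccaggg
Tlr3: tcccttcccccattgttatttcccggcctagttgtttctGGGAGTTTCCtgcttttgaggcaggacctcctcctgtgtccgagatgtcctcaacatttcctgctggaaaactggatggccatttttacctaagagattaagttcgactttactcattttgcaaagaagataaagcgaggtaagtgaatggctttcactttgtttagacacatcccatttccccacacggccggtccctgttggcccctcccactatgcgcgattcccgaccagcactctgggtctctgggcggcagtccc
A match describes the letters and shows no binding.

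Tlr3 was the most abundant of the 10 genes in every group on the authors' FPKM scale, which divides counts by gene length and library size. In MRL/mpj mice the mean level was 2.66 FPKM for Tlr3, 1.55 for Myd88, 1.35 for Tlr7, 1.26 for Tlr1 and 1.00 for Tlr13, and then 0.412 for Tlr6, 0.362 for Tlr2, 0.333 for Tlr9, 0.282 for Tlr4 and 0.0564 FPKM for Tlr8. The ranges over 3 libraries were apart between Tlr3 and Myd88, Tlr13 and Tlr6, Tlr9 and Tlr4, and Tlr4 and Tlr8, and the other neighbours in this order overlapped. Outside Tlr3, Myd88, Tlr7, Tlr1 and Tlr13, every member thus had a mean well below 1 FPKM in MRL/mpj mice, and Tlr8 was close to the limit of counting.

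In MRL/lpr mice the order was Tlr3 (3.82 FPKM), Tlr1 (1.87), Tlr2 (1.28), Myd88 (1.19), Tlr7 (0.905), Tlr13 (0.764), Tlr6 (0.75), Tlr9 (0.549), Tlr4 (0.467) and Tlr8 (0.123 FPKM). Here the ranges were apart between Tlr3 and Tlr1 and between Tlr4 and Tlr8, and all 7 other neighbouring pairs overlapped. The order in MRL/lpr+MSC mice was Tlr3 (3.61 FPKM), Tlr1 (1.5), Myd88 (0.933), Tlr13 (0.754), Tlr2 (0.725), Tlr7 (0.706), Tlr6 (0.674), Tlr9 (0.269), Tlr4 (0.25) and Tlr8 (0.0339 FPKM). Tlr3 and Tlr1, Tlr1 and Myd88, and Tlr4 and Tlr8 were apart there. Tlr2 ranked 7 of 10 in MRL/mpj, 3 of 10 in MRL/lpr and 5 of 10 in MRL/lpr+MSC mice.

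**Figure D1:**
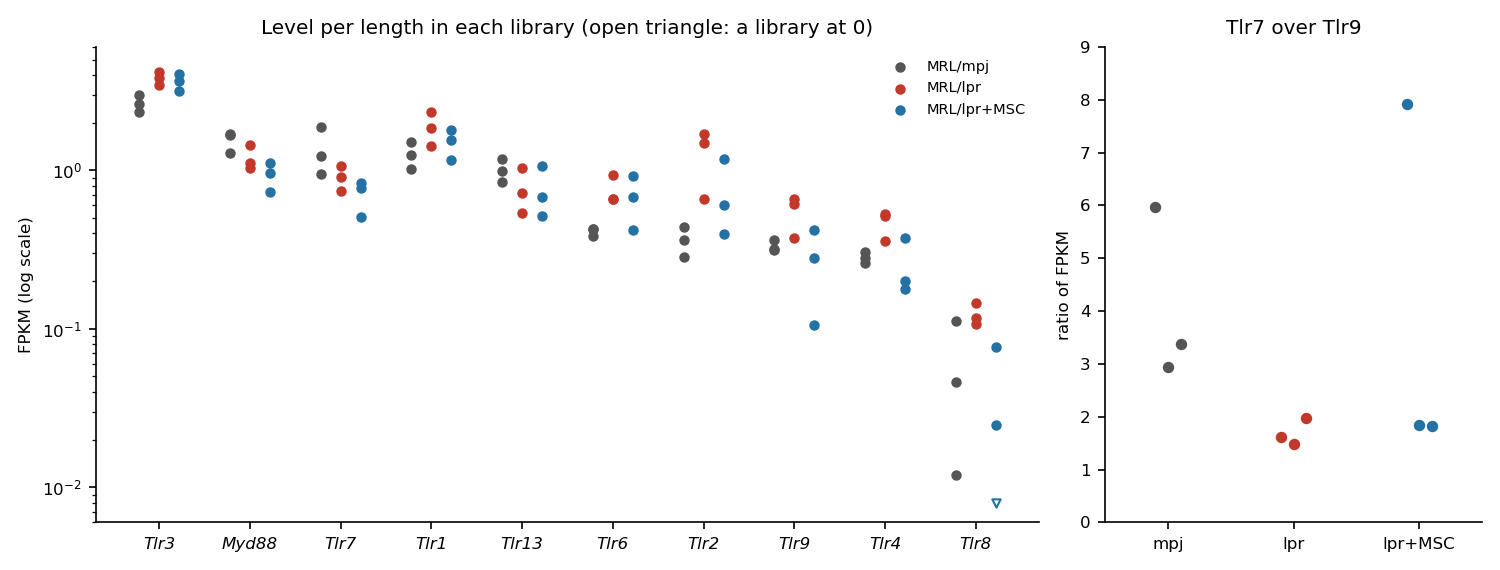
The left panel shows the level of the 10 genes in FPKM on a log axis, with 1 point per library and 3 libraries in each group, and an open triangle for the library in which Tlr8 has no count. The right panel shows the ratio of Tlr7 to Tlr9 in FPKM per library, which is 1.48 to 1.98 in MRL/lpr, below the MRL/mpj libraries (2.95 to 5.96).

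MRL/lpr mice were compared with MRL/mpj mice to see which genes of the family differ before overt disease. Of the 9 members that passed the filter on low counts, 0 were differentially expressed by limma voom, beside 5.74% of the 16697 genes tested, and 4 had an unadjusted p under 0.05, beside 30.1% of the genes. An adjusted p under 0.05 without regard to fold was found for 1 member, Tlr3 (9.12% of the genes). Tlr8 was too low to be tested, and each of the other 9 had at least 20 counts in every MRL/mpj library. The log2 fold change was positive for 6 members (Tlr1, Tlr2, Tlr3, Tlr4, Tlr6 and Tlr9) and negative for 3 (Tlr7, Tlr13 and Myd88), with a median of 0.59 beside 0.03 over all genes tested, of which 54.1% were positive. The groups did not overlap for 5 of the 9, each of them higher in MRL/lpr (19.3% of the genes), and for 0 that were lower (18.8%).

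Tlr2, which pairs with Tlr1 or Tlr6 to bind bacterial lipopeptides, had the largest difference of the members. It had 1.10, 0.857 and 1.30 CPM in the MRL/mpj libraries, 4.56, 5.10 and 1.99 CPM in the MRL/lpr libraries and 1.21, 3.56 and 1.82 CPM in the MRL/lpr+MSC libraries. All 3 MRL/lpr libraries lay above all 3 MRL/mpj libraries, with the third replicate nearest to them, and the MRL/lpr+MSC libraries overlapped both groups. The log2 fold change between MRL/lpr and MRL/mpj was 1.77 (95% confidence interval 0.62 to 2.91, SE 0.48, limma voom, adjusted p = 0.0662), a 3.40-fold difference that missed the threshold. Without MRL/lpr replicate 3, Tlr2 passed it with a log2 fold change of 2.17 (limma voom, adjusted p = 0.00658). In the same fit Tlr3 (0.62, limma voom, adjusted p = 0.0308) and Tlr4 (0.91, limma voom, adjusted p = 0.0450) passed too, so 3 of 9 members were differentially expressed without that library. With limma-trend in place of voom 1 member passed (Tlr2), and with library quality weights 4 did (Tlr2, Tlr3, Tlr4 and Tlr6). Without that library and with quality weights the count over all genes also rose, from 959, as given in the closing section.

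The partners of Tlr2 differed less. Tlr6, which with Tlr2 binds diacylated lipopeptides, had 1.60, 1.59 and 1.41 CPM in MRL/mpj, 3.51, 2.47 and 2.46 CPM in MRL/lpr and 1.57, 3.46 and 2.53 CPM in MRL/lpr+MSC libraries. The MRL/lpr libraries again lay above all MRL/mpj libraries, with a log2 fold change of 0.87 (95% confidence interval 0.30 to 1.44, limma voom, adjusted p = 0.0672). Tlr1, which with Tlr2 binds triacylated lipopeptides, had 4.20, 5.01 and 3.36 CPM in MRL/mpj, 7.93, 4.76 and 6.20 CPM in MRL/lpr and 3.88, 5.22 and 6.03 CPM in MRL/lpr+MSC libraries. Its groups overlapped, and the log2 fold change of 0.59 had an interval that reached 0 (-0.01 to 1.19, limma voom, adjusted p = 0.171). Tlr4, the receptor for bacterial lipopolysaccharide, had 1.45, 1.54 and 1.68 CPM in MRL/mpj, 2.98, 2.85 and 1.99 CPM in MRL/lpr and 0.997, 2.08 and 1.11 CPM in MRL/lpr+MSC libraries. Its MRL/lpr libraries were above both the MRL/mpj libraries and 2 of the 3 MRL/lpr+MSC libraries, and the log2 fold change against MRL/mpj was 0.74 (95% confidence interval 0.15 to 1.32, limma voom, adjusted p = 0.102).

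**Figure D2:**
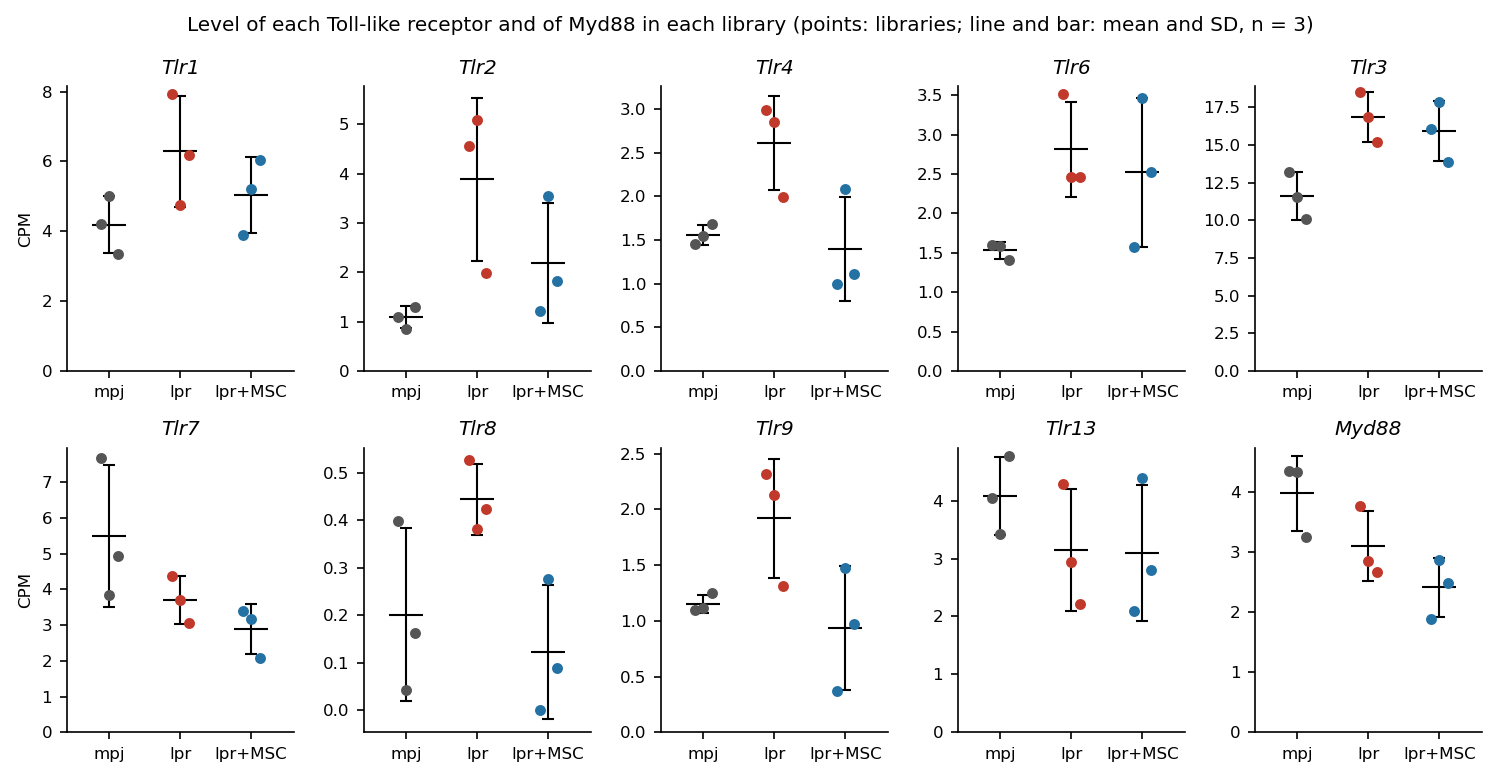
CPM of each of the 10 genes by library, with 1 panel per gene, 3 points per group and the mean and SD as line and bar. The MRL/lpr points of Tlr2, Tlr3, Tlr4, Tlr6 and Tlr9 lie above all MRL/mpj points, and those of Tlr7, Tlr13 and Myd88 do not.

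Among the endosomal receptors, Tlr3, which binds double-stranded RNA, passed the adjusted p but not the fold. It had 13.2, 11.6 and 10.1 CPM in MRL/mpj, 18.5, 16.9 and 15.2 CPM in MRL/lpr and 16.1, 17.9 and 13.9 CPM in MRL/lpr+MSC libraries, so that both MRL/lpr groups lay wholly above MRL/mpj. The log2 fold change against MRL/mpj was 0.55 in MRL/lpr (95% confidence interval 0.24 to 0.87, SE 0.13, limma voom, adjusted p = 0.0492), which is 1.47-fold. The summed level of endothelial markers (6 genes, Flt1 the most abundant) was also above MRL/mpj in both groups. It was 230 to 251 CPM in MRL/mpj, 291 to 301 CPM in MRL/lpr and 310 to 335 CPM in MRL/lpr+MSC libraries. This sum was highest in MRL/lpr+MSC, whereas Tlr3 had a mean of 16.9 CPM in MRL/lpr and 15.9 CPM in MRL/lpr+MSC mice. In each comparison with MRL/mpj 5 of the 6 markers were positive and 1 negative, with medians of 0.24 and 0.23. Cldn5 and Kdr rose in both comparisons, and the part of endothelial cells in the difference of Tlr3 was not tested. Tlr9, which binds unmethylated CpG DNA, had 1.10, 1.11 and 1.25 CPM in MRL/mpj, 2.32, 2.13 and 1.32 CPM in MRL/lpr and 0.367, 1.48 and 0.976 CPM in MRL/lpr+MSC libraries. Its MRL/lpr libraries did not overlap MRL/mpj, the third by a narrow margin, and the log2 fold change was 0.71 (95% confidence interval -0.00 to 1.42, limma voom, adjusted p = 0.167).

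Tlr7, which binds single-stranded RNA, had 7.69, 3.86 and 4.94 CPM in MRL/mpj, 4.39, 3.70 and 3.06 CPM in MRL/lpr and 3.41, 3.19 and 2.08 CPM in MRL/lpr+MSC libraries. MRL/mpj replicate 1 was the highest library, the MRL/lpr libraries overlapped MRL/mpj, and the log2 fold change between them was -0.48 (95% confidence interval -1.16 to 0.20, limma voom, adjusted p = 0.302). Tlr13, which binds a sequence of bacterial ribosomal RNA, had 4.05, 3.43 and 4.77 CPM in MRL/mpj, 4.28, 2.93 and 2.21 CPM in MRL/lpr and 2.10, 4.39 and 2.79 CPM in MRL/lpr+MSC libraries. All 3 groups overlapped (MRL/lpr against MRL/mpj -0.37, 95% confidence interval -1.02 to 0.29, limma voom, adjusted p = 0.407). Tlr8, a relative of Tlr7, had 8, 1 and 3 counts in MRL/mpj, 15, 9 and 10 in MRL/lpr and 0, 6 and 2 counts in MRL/lpr+MSC libraries. At this depth its level of 0.445 ± 0.0741 CPM in MRL/lpr (n = 3) rests on few reads, and no fold or test is given.

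Myd88, the shared adaptor, had 4.35, 4.33 and 3.25 CPM in MRL/mpj, 3.76, 2.85 and 2.67 CPM in MRL/lpr and 1.89, 2.86 and 2.48 CPM in MRL/lpr+MSC libraries. Its MRL/lpr libraries overlapped MRL/mpj and its MRL/lpr+MSC libraries lay below them. The log2 fold change was -0.35 between MRL/lpr and MRL/mpj (95% confidence interval -0.86 to 0.16, limma voom, adjusted p = 0.313).

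In MRL/lpr+MSC against MRL/mpj mice, 0 of the 9 tested members were differentially expressed by limma voom (3.36% of 16196 genes), and 3 had an unadjusted p under 0.05 (22.8% of the genes): Tlr3, Tlr7 and Myd88. With limma-trend and with library quality weights the count was also 0. An adjusted p under 0.05 was found for 0 of them (4.89% of the genes). Positive log2 fold changes were found for 4 members and negative ones for 5, with a median of -0.23 beside 0.00 over all genes, of which 50.6% were positive. The groups did not overlap for 1 member that was higher, Tlr3 (15.8% of the genes), and 2 that were lower, Tlr7 and Myd88 (13.6%).

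Myd88 had a log2 fold change of -0.73 in this comparison (95% confidence interval -1.27 to -0.20, limma voom, adjusted p = 0.118), and Tlr7 one of -0.90 (95% confidence interval -1.65 to -0.15, limma voom, adjusted p = 0.156). Tlr3 had 0.44 (95% confidence interval 0.10 to 0.78, limma voom, adjusted p = 0.134). Among the surface receptors, Tlr2 had 0.90 (95% confidence interval -0.15 to 1.95, limma voom, adjusted p = 0.281) and Tlr6 0.64 (limma voom, adjusted p = 0.295), Tlr1 had 0.25 and Tlr4 -0.23. Of the remaining endosomal receptors, Tlr9 had -0.47 and Tlr13 -0.43. Without MRL/lpr+MSC replicate 1, the library with the lowest CPM of Tlr4, Tlr8, Tlr9, Tlr13 and Myd88, Tlr6 passed the threshold with 0.93 (limma voom, adjusted p = 0.0467), so 1 member was differentially expressed. The count over all genes also rose in that fit, from 544 to 1518.

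**Figure D3:**
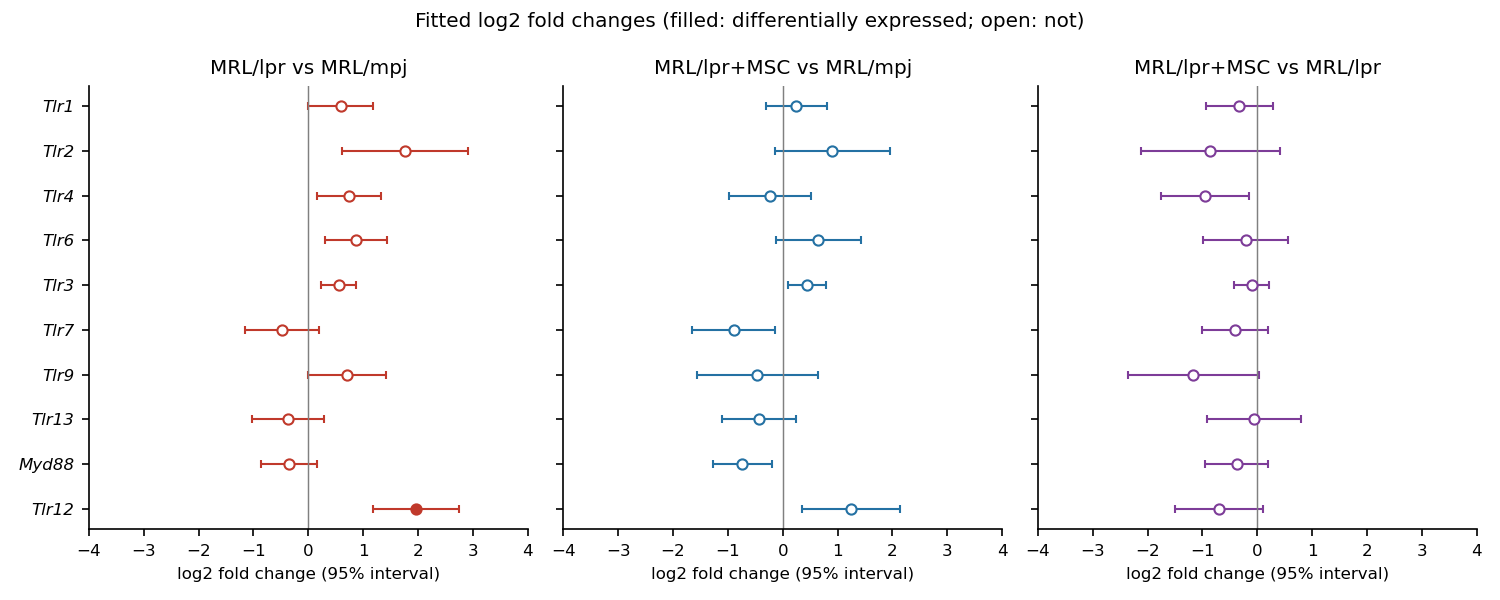
Log2 fold changes of the 9 tested genes and of Tlr12 in the 3 comparisons, as points with 95% confidence intervals, filled where differentially expressed (Tlr12 in MRL/lpr). Among the 9, Tlr2 is farthest above 0 in MRL/lpr (1.77) and Tlr7 farthest below 0 in MRL/lpr+MSC against MRL/mpj (-0.90), and between the MRL/lpr groups every point is below 0.

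Between MRL/lpr+MSC and MRL/lpr mice, limma voom, limma-trend and the fit with quality weights each called 0 of the 16758 genes tested, and the background of calls is thus 0%. An unadjusted p under 0.05 was found for 646 genes (3.85%). Of the 9 tested members 0 passed, and 1, Tlr4, had an unadjusted p under 0.05. All 9 members had a negative log2 fold change, with a median of -0.37 beside -0.01 over all genes, of which 47.4% were positive. The values were -1.16 for Tlr9 (95% confidence interval -2.36 to 0.03), -0.96 for Tlr4 (-1.76 to -0.15), -0.85 for Tlr2 (-2.11 to 0.41), -0.41 for Tlr7, -0.37 for Myd88, -0.33 for Tlr1, -0.21 for Tlr6, -0.10 for Tlr3 and -0.05 for Tlr13, with adjusted p between 0.926 and 0.986 (limma voom). The groups overlapped for each of the 9 tested members (4.51% of the genes did not overlap and were higher, 5.46% were lower). Tlr8, too low to be tested, was at 0 to 0.277 CPM in MRL/lpr+MSC, below its 0.383 to 0.527 CPM in MRL/lpr libraries. The 3 comparisons share libraries and are not independent of each other.

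With MRL/lpr and MRL/lpr+MSC libraries as 1 group of 6, 0 of 9 members were differentially expressed (5.13% of 17113 genes). Tlr3 alone had an adjusted p under 0.05 (9.14% of the genes), at less than 1.5-fold (log2 fold change 0.50, limma voom, adjusted p = 0.0372). Tlr2 had 1.36 (limma voom, adjusted p = 0.156), Tlr6 0.76, Tlr7 -0.68, Myd88 -0.53, Tlr4 0.28 and Tlr9 0.16. The values of Tlr4 and Tlr9 were below those of MRL/lpr alone (0.74 and 0.71), in a fit that includes MRL/lpr+MSC replicate 1, where both genes were at their lowest.

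Of the other 3 receptors of the mouse family, Tlr12, which binds a parasite protein together with Tlr11, rose in MRL/lpr mice. It had 0.30, 0.343 and 0.380 CPM in MRL/mpj, 1.58, 1.53 and 1.06 CPM in MRL/lpr and 0.945, 1.11 and 0.576 CPM in MRL/lpr+MSC libraries, and neither MRL/lpr group overlapped MRL/mpj. The log2 fold change was 1.96 in MRL/lpr (95% confidence interval 1.17 to 2.74, SE 0.33, limma voom, adjusted p = 0.0209) and 1.24 in MRL/lpr+MSC (limma voom, adjusted p = 0.110). With both groups as 1 it was 1.62 (limma voom, adjusted p = 0.0408). Tlr12 passed the filter only through the groups in which it is higher, as its MRL/mpj libraries had 6 to 8 counts, and its call was lost without any 1 of the MRL/mpj libraries or without MRL/lpr replicate 1. Tlr11 had 0 counts in every MRL/mpj library, 14, 14 and 2 in MRL/lpr and 1, 0 and 1 counts in MRL/lpr+MSC libraries. Its mean in MRL/lpr was at least 2.66-fold higher than the limit of 3 counts per MRL/mpj library, and it was too low for a test. Tlr5, the flagellin receptor, had a mean of 0.632 CPM in MRL/mpj, 0.475 CPM in MRL/lpr and 0.408 CPM in MRL/lpr+MSC mice.

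The genes that work with the receptors were taken from lists by role. The counts in these lists and in the marker lists stand beside the shares over all genes tested. In MRL/lpr against MRL/mpj 5.74% were called by limma voom and 30.1% had an unadjusted p under 0.05. In MRL/lpr+MSC against MRL/mpj these shares were 3.36% and 22.8%. Co-receptors, chaperones and proteases of receptor trafficking (14 genes, among them Cd14, Ly96 and Unc93b1) had 0 calls by limma voom in MRL/lpr, 4 genes with an unadjusted p under 0.05 and 12 positive values, and the median log2 fold change was 0.29. limma-trend called 0 of them and the fit with quality weights 2. The median was 0.02 in MRL/lpr+MSC against MRL/mpj, where 1 gene had an unadjusted p under 0.05. The most abundant of them, Ctsb, a lysosomal protease, lay between 470 and 521 CPM in all 9 libraries.

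Of the adaptors other than Myd88 (5 genes), limma voom called 0 in MRL/lpr, 3 had an unadjusted p under 0.05, and limma-trend and quality weights called 1 each. Their median log2 fold change was -0.22 in MRL/lpr and -0.07 in MRL/lpr+MSC against MRL/mpj. Sarm1, the most abundant, had 38.0 ± 1.93 CPM in MRL/mpj and 32.4 ± 1.79 CPM in MRL/lpr mice (n = 3 each).

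Of the kinases, ubiquitin ligases and transcription factors of the pathway (23 genes), limma voom called 0 in MRL/lpr, 10 had an unadjusted p under 0.05, limma-trend called 1 and quality weights 5. The median was 0.19 in MRL/lpr and 0.10 in MRL/lpr+MSC. The gene Irf7, the interferon regulatory factor downstream of Tlr7 and Tlr9 and itself induced by interferon, was the 1 of the list that rose in MRL/lpr+MSC. It had 1.4, 1.24 and 1.08 CPM in MRL/mpj, 4.95, 4.04 and 2.16 CPM in MRL/lpr and 2.47, 2.45 and 2.75 CPM in MRL/lpr+MSC libraries. Both groups lay above MRL/mpj, with log2 fold changes of 1.52 in MRL/lpr (limma voom, adjusted p = 0.0613) and 1.02 in MRL/lpr+MSC (limma voom, adjusted p = 0.0412). With both groups as 1 the value was 1.28 and was not called (limma voom, adjusted p = 0.0503). Without MRL/lpr replicate 3 Irf7 also rose in MRL/lpr (1.85, limma voom, adjusted p = 0.00900), and its call in MRL/lpr+MSC was lost without any 1 of the MRL/mpj libraries or without MRL/lpr+MSC replicate 2 or 3. Ube2n, the most abundant of the list, had 182 ± 5.32 CPM in MRL/mpj and 157 ± 10.8 CPM in MRL/lpr mice (n = 3 each).

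Of 10 inhibitors of the pathway, 1 was differentially expressed in MRL/lpr and 0 in MRL/lpr+MSC by limma voom, where 0 had an unadjusted p under 0.05 and limma-trend and quality weights also called 0. Socs1, a suppressor of cytokine and Toll-like receptor signalling that is induced by interferon, rose in MRL/lpr mice. It had 0.450, 0.30 and 0.542 CPM in MRL/mpj, 3.16, 1.62 and 1.27 CPM in MRL/lpr and 0.577, 0.739 and 0.621 CPM in MRL/lpr+MSC libraries. The MRL/lpr libraries lay above all 6 others, and the log2 fold change against MRL/mpj was 2.16 in MRL/lpr (limma voom, adjusted p = 0.0465) and 0.60 in MRL/lpr+MSC (limma voom, adjusted p = 0.339). With both groups as 1 the call of Socs1 was lost (limma voom, adjusted p = 0.195), as it was without any 1 of the MRL/mpj libraries or without MRL/lpr replicate 1. Socs1 had 7 to 10 counts in the MRL/mpj libraries and 30 to 90 in MRL/lpr, and passed the filter only through the latter. Tollip, the most abundant inhibitor, had 189 ± 10.9 CPM in MRL/mpj and 158 ± 11.3 CPM in MRL/lpr mice (n = 3 each). The median of the list was -0.03 in MRL/lpr and -0.00 in MRL/lpr+MSC mice.

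Genes that the pathway induces, such as Tnf, Il1b and Cxcl10, were mostly too low: 9 of 19 passed the filter in MRL/lpr and 6 in MRL/lpr+MSC, and Ifnb1 had no count in any library. Of the 9 tested in MRL/lpr, 6 had a positive and 3 a negative log2 fold change, and 4 had an unadjusted p under 0.05 (30.1% of all genes). The groups did not overlap for 3 that were higher (19.3% of all genes) and 1 that was lower (18.8%). Several of the targets tested passed the filter only through the group in which they were higher, and so had to be higher. The counts of positive values, of groups that did not overlap and of calls include them and do not show a rise. limma-trend and quality weights called 3 each, whereas limma voom called 1, which fell. This gene, Nfkbiz, an inducible nuclear regulator of NF-kappaB, had 11.0, 8.96 and 10.7 CPM in MRL/mpj, 6.60, 6.08 and 4.58 CPM in MRL/lpr and 9.92, 6.19 and 4.12 CPM in MRL/lpr+MSC libraries. Its MRL/lpr libraries lay below MRL/mpj, with a log2 fold change of -0.81 (limma voom, adjusted p = 0.0383), and the value was -0.71 in MRL/lpr+MSC (limma voom, adjusted p = 0.190), whose first library lay within MRL/mpj. The call was lost when all 9 libraries shared 1 fit (limma voom, adjusted p = 0.0895), with both groups as 1 (limma voom, adjusted p = 0.0545), and without any 1 of the MRL/mpj libraries or MRL/lpr replicate 1. Without MRL/lpr+MSC replicate 1 Nfkbiz also fell in MRL/lpr+MSC (-1.01, limma voom, adjusted p = 0.0208). Of the 6 targets tested in MRL/lpr+MSC, 0 were called by limma voom, 1 had an unadjusted p under 0.05, limma-trend called 0 and quality weights 1. Ptgs2, the most abundant of these genes, had 18.3 ± 5.85 CPM in MRL/mpj and 18.2 ± 7.80 CPM in MRL/lpr mice (n = 3 each). A median over the targets that passed is not given, since several passed only through the group in which they were higher.

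Interleukin-1 family receptors, which also signal through Myd88, had 3 of 6 genes tested and 0 called in either comparison with MRL/mpj. An unadjusted p under 0.05 was found for 0 of them in MRL/lpr and 1 in MRL/lpr+MSC, and limma-trend and quality weights called 0. Il1rap, their most abundant gene, had 82.6 ± 11.1 CPM in MRL/mpj, 74.8 ± 21.6 CPM in MRL/lpr and 62.0 ± 9.84 CPM in MRL/lpr+MSC mice (n = 3 each). Of 8 genes for endogenous ligands, 7 were tested and 0 called in either comparison, with 1 under an unadjusted p of 0.05 in MRL/lpr and 3 in MRL/lpr+MSC and 0 calls by limma-trend or quality weights. The most abundant of them, Hmgb1, a nuclear protein that binds Tlr4 when released, had 205 ± 4.06 CPM in MRL/mpj, 176 ± 16.9 CPM in MRL/lpr and 176 ± 4.41 CPM in MRL/lpr+MSC mice (n = 3 each).

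**Figure D4:**
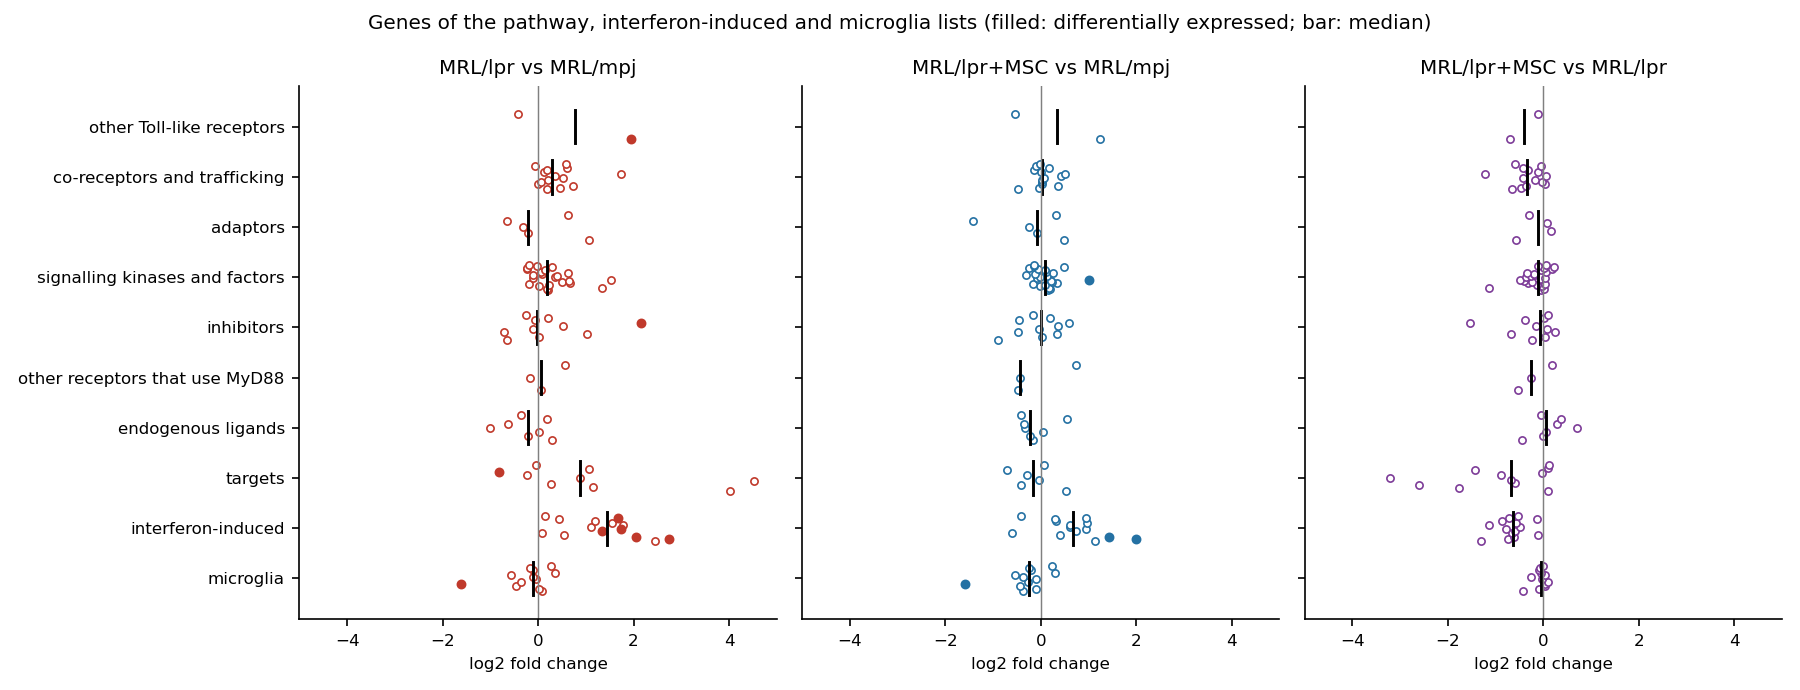
Log2 fold changes of the tested genes of each list in the 3 comparisons, with genes as points, filled where differentially expressed, and the median of the tested genes as a vertical bar. The bar of the targets is not to be read as a difference, since several targets passed the filter only through the group in which they were higher. The interferon-induced genes have a median of 1.44 in MRL/lpr and 0.68 in MRL/lpr+MSC mice, and the medians of the adaptors, -0.22 and -0.07, are below 0.

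Interferon-induced genes were higher in both MRL/lpr groups than in MRL/mpj, and their part in the differences of the members was not tested. All 14 tested genes of a list of 16 were positive in MRL/lpr, with a median of 1.44, and 5 of them (Ifi44, Ifit1, Irf9, Isg15 and Usp18) rose. There were 12 of 14 positive values in MRL/lpr+MSC, with a median of 0.68, and Ifi44 and Ifit1 rose. Ifi44 had 6 to 12 counts in the MRL/mpj libraries, 41 to 133 in MRL/lpr and 31 to 51 in MRL/lpr+MSC. It passed the filter only through the groups in which it is higher, so its fold change is uncertain. The counts of positive values and the medians of the list include Ifi44. The summed level of the list was 64.7, 69.5 and 65.0 CPM in MRL/mpj, 175, 139 and 93.9 CPM in MRL/lpr and 88.2, 88.6 and 95.2 CPM in MRL/lpr+MSC libraries. MRL/lpr replicate 3 had the lowest sum of its group. It also had the lowest CPM of its group for every member except Tlr1 and Tlr8, among them Tlr7, Tlr13 and Myd88, which were not higher in MRL/lpr. Stat2 was the most abundant gene of the list.

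In bulk tissue, fewer cells of a type and less RNA per cell cannot be told apart, and the level of a receptor can move with the cells that express it. The summed level of 12 microglia markers, of which Csf1r is the most abundant, was 381 to 412 CPM in MRL/mpj, 314 to 403 CPM in MRL/lpr and 314 to 354 CPM in MRL/lpr+MSC mice, and no marker was without counts. MRL/lpr replicate 1 had 403 CPM, within the range of MRL/mpj, and the other two MRL/lpr libraries, at 314 and 315 CPM, lay below it. The part of microglia in the differences was not tested. Of these 12 markers 1, Fcrls, fell in MRL/lpr and in MRL/lpr+MSC against MRL/mpj, and the median log2 fold changes were -0.11 and -0.25. Border macrophage markers (8 genes, Stab1 the most abundant) summed to 31.3 to 57.1 CPM in MRL/mpj, 34.1 to 41.8 CPM in MRL/lpr and 19.2 to 41.9 CPM in MRL/lpr+MSC mice.

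Expressed per 1000 counts of the 12 microglia markers, 7 of the 10 members (Tlr1, Tlr2, Tlr3, Tlr4, Tlr6, Tlr8 and Tlr9) were higher in all MRL/lpr libraries than in all MRL/mpj libraries, beside 29% of the genes tested, and 0 were lower in all of them (3.65%). The shares on this scale are over genes that passed the filter on low counts, which Tlr8 did not pass. Tlr2 had 2.67, 2.21 and 3.42 counts per 1000 in MRL/mpj, 11.3, 16.3 and 6.34 in MRL/lpr and 3.63, 10.05 and 5.79 counts per 1000 in MRL/lpr+MSC libraries. On this scale both MRL/lpr groups lay wholly above MRL/mpj, and the group means of Tlr2 were 4.09 ± 1.79 and 2.35 ± 1.18 times that of MRL/mpj (± SD of the group over the MRL/mpj mean, n = 3). The ratio of MRL/lpr to MRL/mpj was 2.09 ± 0.128 for Tlr6, 1.92 ± 0.348 for Tlr4, 1.89 for Tlr9, 1.71 for Tlr1 and 1.67 ± 0.137 for Tlr3, whereas it was 0.889 for Myd88, 0.865 for Tlr13 and 0.779 for Tlr7. These ratios are a description without a test.

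In MRL/lpr+MSC against MRL/mpj on the same scale, 3 members (Tlr2, Tlr3 and Tlr6) were higher without overlap, beside 39.9% of the genes, and 1, Myd88, was lower (3.46%). Myd88 had 10.5, 11.2 and 8.55 counts per 1000 in MRL/mpj and 5.68, 8.09 and 7.91 in MRL/lpr+MSC libraries. The ratios to MRL/mpj were 1.93 for Tlr6, 1.62 for Tlr3, 1.04 for Tlr4, 0.951 for Tlr9, 0.716 for Myd88 and 0.623 for Tlr7. Between MRL/lpr+MSC and MRL/lpr, 0 members were higher without overlap (1.9% of the genes) and 4 were lower (3.51%), which were Tlr4, Tlr8, Tlr9 and Myd88. Tlr9 was separated by a narrow margin, with 4.175 in MRL/lpr+MSC replicate 2 and 4.183 in MRL/lpr replicate 3. With Cx3cr1 and Trem2 left out of the markers these libraries had 5.07 and 4.96, and the groups overlapped. Tlr8 rests on 0 to 6 counts in MRL/lpr+MSC and 9 to 15 in MRL/lpr libraries.

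**Figure D5:**
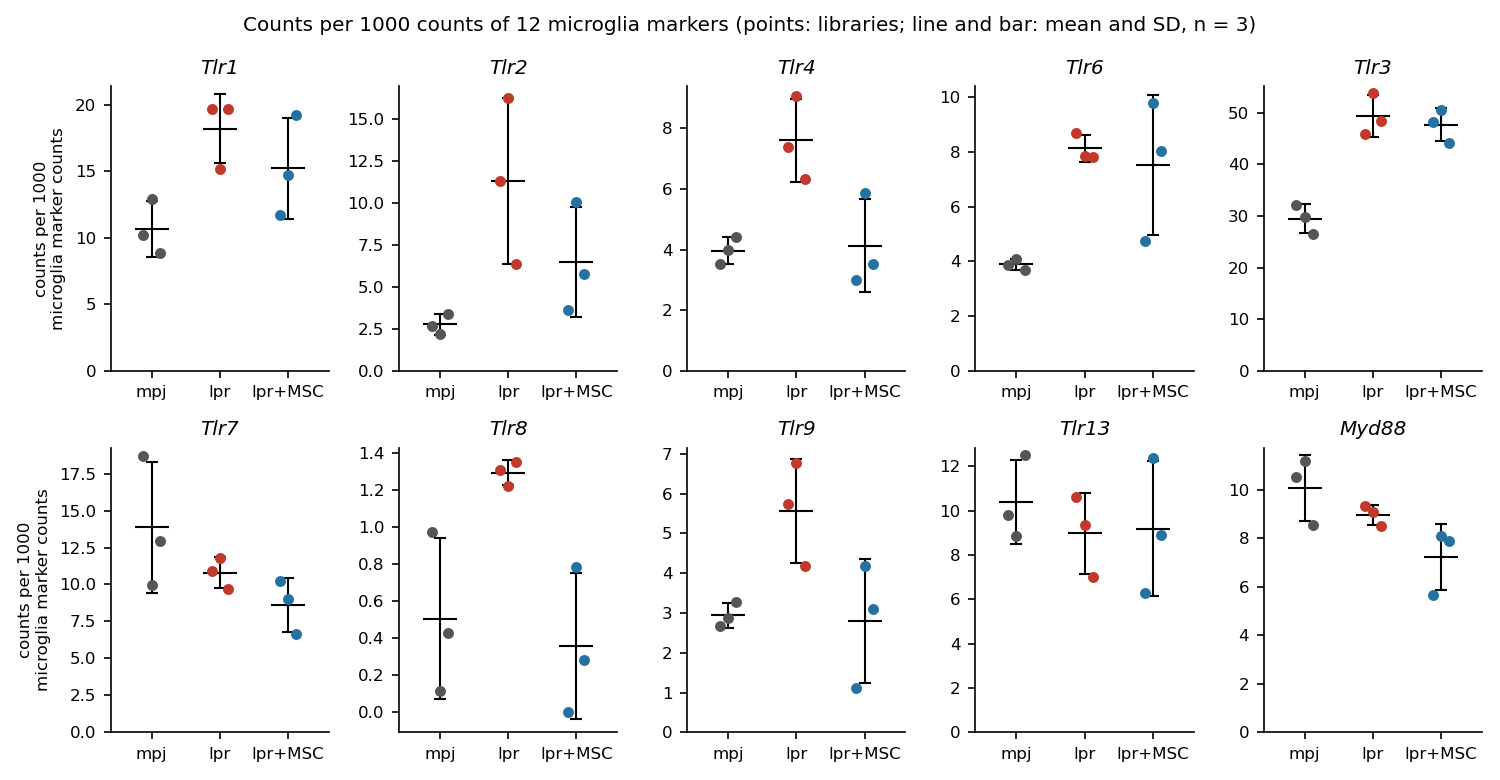
Counts of each member per 1000 counts of the 12 microglia markers, with 1 point per library and the mean and SD of 3 libraries as line and bar. The MRL/lpr points lie above all MRL/mpj points for Tlr1, Tlr2, Tlr3, Tlr4, Tlr6, Tlr8 and Tlr9, and Tlr2 reaches 16.3 in MRL/lpr.

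Markers of B and T cells were higher in all MRL/lpr libraries than in all MRL/mpj libraries. B cell markers (7 genes, Igkc the most abundant) summed to 24.1, 8.18 and 7.92 CPM in MRL/mpj, 372, 111 and 66.1 CPM in MRL/lpr and 21.4, 49.2 and 31.8 CPM in MRL/lpr+MSC libraries. Cd79a, with 3 to 14 counts in MRL/mpj and 28 to 68 in MRL/lpr libraries, was called higher in MRL/lpr. It passed the filter only through the MRL/lpr libraries, so that its call is no independent sign of a rise. T cell markers (8 genes, Lck the most abundant) summed to 2.17 to 2.80 CPM in MRL/mpj, where Cd3g and Cd2 had no count, to 7.34 to 23.3 CPM in MRL/lpr and to 2.73 to 5.76 CPM in MRL/lpr+MSC mice, and 5 of the 8 rose in MRL/lpr. These 5 had at most 3 counts in any MRL/mpj library and passed the filter only through the MRL/lpr libraries, so that they had to differ. Monocyte and neutrophil markers (9 genes, S100a9 the most abundant) summed to 1.95 to 6.94 CPM in MRL/mpj, 3.52 to 17.5 CPM in MRL/lpr and 0.892 to 18.6 CPM in MRL/lpr+MSC mice, and Ly6g had no count in any library. Choroid plexus markers (6 genes, Ttr the most abundant) ranged from 104 to 9527 CPM over the 9 libraries and were highest in MRL/lpr replicate 2 and MRL/lpr+MSC replicate 2, the library with the highest Tlr2 of each group. The part of these cells in the differences of the Toll-like receptors was not tested.

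The library with the highest CPM of a member was MRL/lpr replicate 1 for 6 of the 10 members (Tlr1, Tlr3, Tlr4, Tlr6, Tlr8 and Tlr9), and the library with the lowest was MRL/lpr+MSC replicate 1 for 5 (Tlr4, Tlr8, Tlr9, Tlr13 and Myd88). MRL/lpr replicate 1 also had the highest sums of interferon-induced, B cell and T cell genes. The balance of Tlr7 to Tlr9, chosen after the values were seen, was 5.96, 2.95 and 3.37 on the FPKM scale in MRL/mpj, 1.61, 1.48 and 1.98 in MRL/lpr and 7.91, 1.84 and 1.82 in MRL/lpr+MSC libraries. The MRL/lpr libraries lay below MRL/mpj, whereas the first MRL/lpr+MSC library, in which Tlr9 had 7 counts, lay above all others.

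Likeness to each member was measured by Pearson's r of log2 CPM over the 9 libraries, among the 11877 genes whose mean reached 5 CPM. It is a description over libraries that share groups. Each value is among the highest of so many over only 9 libraries, so its size is not a result, and no shared function was tested. The 3 genes most like Tlr2 were Svbp (r = 0.993), Bst2 (0.991), an interferon-induced membrane protein, and Elf1 (0.981). For Tlr3 they were Tmem123 (0.958), Rsad1 (0.956) and Ptpn21 (0.954), and for Tlr4 Smc4 (0.971), Syk (0.934), a kinase of immune receptor signalling, and Cep89 (0.931). For Tlr9 they were Serping1 (0.958), the inhibitor of complement C1, Kremen1 (0.952) and Ctsz (0.945), a lysosomal protease.

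For Tlr1 the leading genes were Miip (0.967), Sh3pxd2b (0.959) and Ltbp1 (0.959), for Tlr6 Slc38a3 (0.987), Cfap74 (0.983) and Firre (0.980), and for Tlr8 Rcsd1 (0.952), Stk17b (0.920) and Rock1 (0.915). For Tlr7 they were Zfp599 (0.954), Filip1l (0.945) and Serinc3 (0.932), for Tlr13 Stxbp2 (0.939), Tmed2 (0.936) and Enpp6 (0.932), and for Myd88 Pdlim2 (0.936), Plod2 (0.934) and Rbmx (0.929). No gene was named for more than 1 member.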

How the data were processed

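Hippocampal RNA of 9 libraries was sequenced after poly-A selection. Per the study's methods, the authors used STAR on mm10 and counted with HTSeq, whereas the submitters' processing notes name TopHat2 and GRCm38. The deposited matrix holds raw counts, and the authors also deposited 1 table of FPKM per library, made from those counts. Whether the counting used strand is not given in the sources used here. Columns with no sample numbered 0.

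Each comparison was fitted on its own 6 libraries. Counts were scaled by TMM (trimming 30% of log ratios and 5% of levels, own implementation), and CPM are counts on that scale. Genes were tested when at least 3 libraries reached the CPM of 10 counts in the median library and all libraries together held 15 counts or more. Tests were made with limma voom and robust moderation in R 4.3.3, with statmod 1.5.0 and limma 3.58.1, and p-values were adjusted after Benjamini-Hochberg across the genes tested. A quasi-likelihood test on the counts was planned as the main test and was not run, because the separator between the columns of the matrix was not accepted for a count test. It was replaced by limma voom. DESeq2, which the authors used, was not run for the same reason. On simulated counts for MRL/lpr against MRL/mpj with 16515 genes tested, 85 of 100 genes changed 2-fold and 99 of 100 changed 4-fold were recovered, with 9 false calls. The simulation gave every gene the same fixed spread, which was not estimated from these libraries. It therefore checks the code and does not show how many real changes of the members would be found.

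Symbols from GENCODE matched 47224 of 47643 genes, and coordinates are those of GRCm38. Words of 50 bases were compared over annotated transcripts. The members and gene lists were chosen with earlier results of these data known. Named genes are the members, Tlr5, Tlr11, Tlr12, Fas, every differentially expressed gene of a pathway list (at most 6), the most abundant gene of each list, and the 3 genes most like each member. Differentially expressed marker genes are named where their list is described, except for an item that is not reported here. Alternatives were other size factors, filters, 1 fit for all libraries, the replicate number as a block and each library left out. limma-trend, quality weights, non-robust moderation and the joined MRL/lpr groups were added after the data were seen.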

Additional observations from a re-analysis of the deposited data

How the results depend on the processing

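Genes differentially expressed in MRL/lpr against MRL/mpj numbered 959, or 2064 with library quality weights, and between 162 and 1692 with 1 library left out, MRL/mpj replicate 3 and MRL/lpr replicate 2 in turn. The other libraries moved this count too: 242 without MRL/mpj replicate 1, 235 without MRL/mpj replicate 2, 410 without MRL/lpr replicate 1 and 1503 without MRL/lpr replicate 3. In MRL/lpr+MSC against MRL/mpj the count was 544, or 1181 with quality weights and between 192 and 1518 with 1 library left out, MRL/mpj replicate 1 and MRL/lpr+MSC replicate 1 in turn, with 200 and 198 without MRL/mpj replicates 2 and 3 and 348 and 273 without MRL/lpr+MSC replicates 2 and 3. Between MRL/lpr+MSC and MRL/lpr it was 0 under every alternative that was run. Size factors, filters, 1 fit for all libraries, non-robust moderation and limma-trend kept both counts within 1.5 times, with 808 to 1338 and 435 to 623 genes.

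Of the 9 members, 0 were called against MRL/mpj in MRL/lpr, 1 with limma-trend (Tlr2, limma-trend adjusted p = 0.0342), 4 with quality weights (limma voom adjusted p = 0.0157 for Tlr2, 0.0202 for Tlr3, 0.0229 for Tlr6 and 0.0384 for Tlr4) and 0 to 3 without 1 library. In MRL/lpr+MSC the range was 0 to 1. Same-numbered libraries did not deviate together in every pair (correlations of 0.00067, 0.196 and 0.0934 for MRL/lpr with MRL/mpj and -0.0629, 0.0784 and 0.210 for MRL/lpr+MSC with MRL/mpj), so the number was not taken as a pairing. With the replicate number as a block, genes called numbered 1349 and 286, and 1 member was called in MRL/lpr (Tlr2, limma voom, adjusted p = 0.0448).

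Directions turned for Fas (0.11 with quality weights, -0.24 to 0.15 without 1 library), for Tlr9 in MRL/lpr+MSC against MRL/mpj (-0.89 to 0.057 without 1 library) and between the MRL/lpr groups for Tlr6 (-0.48 to 0.068) and Tlr13 (-0.35 to 0.23). The causes were not tested. Ratios per microglia count moved by less than 1 SD of their group under other marker lists. On that scale the separation of MRL/lpr+MSC from MRL/lpr for Tlr9 was lost without Cx3cr1 and Trem2. Quasi-likelihood and DESeq2 fits were planned and not run.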
